A study of Mus musculus with 12 samples.

Results

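The comparison set 3 P7 libraries against 3 P3 libraries of sorted mouse lung cells, profiled by bulk RNA-seq, in which the Acta2-dsRed reporter and the Pdgfra-GFP reporter were both on. These 6 of the 12 libraries of the series were taken by their stage labels alone, and every difference below is P7 minus P3. The other 6 libraries, 3 of embryonic day E17.5 and 3 of postnatal day P10, entered the model that estimates the spread and are described where they place the week among its neighbours. The P7 and P3 groups shared the tissue (whole lung), the genotype (Acta2-dsRed+, Pdgfra-GFP+) and the procedure, in which the lung was dissociated and cells positive for both reporters were sorted before RNA extraction. The labels name no treatment, strain or sex, do not say how either reporter was made, and do not say whether animals were pooled or whether each library is 1 animal. The p-values therefore measure the spread between these libraries, which may be technical.

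Smooth muscle actin is the product of Acta2, and Pdgfra encodes a receptor for platelet-derived growth factors. In the newborn mouse lung, cells with both are known as secondary crest myofibroblasts. They lie at the tips of the ridges that divide the terminal airspaces into alveoli, contract, and lay down elastin. Their neighbours in the alveolar wall include alveolar fibroblasts and lipofibroblasts, which are known for Tcf21, Npnt and Limch1, and from which reporter-positive cells may be hard to separate in a dissociated lung. Fetal growth programmes, of which the imprinted growth factor gene Igf2 is the best known, are shut down in most organs over the first weeks after birth.

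Estimated counts summed to between 14481898 and 18643094 in the P7 libraries and to between 16401784 and 17432302 in the P3 libraries, with between 20938 and 21235 genes above 0 at P7 and between 20234 and 20990 at P3. Small structural and mitochondrial RNAs took between 44.2 and 49.3% of the summed values at P7 and between 48.6 and 55.0% at P3. Levels are given in CPM, estimated counts scaled by library sizes that were normalised by the trimmed mean of M-values (TMM), and the 3 values of a stage are those of its replicates 1, 2 and 3 in that order. CPM are not divided by gene length, so levels are compared between stages and not between genes. Spearman correlations over the tested genes lay between 0.956 and 0.961 among P7 libraries, between 0.942 and 0.959 among P3 libraries and between 0.939 and 0.954 across the stages. E17.5 replicate 1, outside the comparison, stood apart in the alveolar fibroblast markers. They summed to 3430.0 CPM there, against 910.4 and 793 CPM in the other E17.5 libraries. This library enters the estimate of the spread, and counts without it are given beside those with it. Libraries outside the comparison also differed in the share of small structural and mitochondrial RNAs, from 33.6% in P10 replicate 3 to 68.7% in E17.5 replicate 2. Both enter the same estimate of the spread. The 4 Y-linked genes Ddx3y, Eif2s3y, Kdm5d and Uty summed to 0.698, 0.0563 and 0 CPM in the P7 libraries, against 5.80, 1.25 and 0.405 CPM in the P3 libraries, and what this has to do with the results was not tested.

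Both reporter genes were detected in every P7 and P3 library. All libraries of the series are of reporter-positive cells, so these levels cannot check the sort. Acta2 had 823, 690.5 and 952 CPM in the P7 libraries, against 1016, 984 and 1075 CPM in the P3 libraries. The P7 libraries lay below the P3 libraries, with a log2 fold change of -0.32 (95% interval -0.93 to 0.29, adjusted p = 0.632 by edgeR's quasi-likelihood test), which did not pass the threshold of 0.05. Pdgfra had 186, 218 and 168 CPM at P7, against 206, 164 and 165 CPM at P3, and the libraries overlapped (0.09, 95% interval -0.31 to 0.50). Other defining markers of the myofibroblast were well detected at both stages. Tgfbi, a secreted TGF-beta-induced matrix protein, averaged 1872 ± 115 CPM at P7 and 1958 ± 158 CPM at P3 (SD, n = 3 each). Fgf18, a fibroblast growth factor of these cells, averaged 137 ± 25.2 CPM at P7 and 108 ± 32.7 CPM at P3. In bulk libraries, fewer cells of a kind and less RNA per cell cannot be told apart, and this holds for every level below.

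Of 16827 tested genes, 1 passed (0.00594%), and that gene, Igf2, was lower at P7. At an unadjusted p under 0.05 the count was 2399 genes (14.3%), 1152 of them higher and 1247 lower at P7 (6.85% and 7.41%). For 4364 genes (25.9%) the P7 and P3 libraries did not overlap, with P7 above P3 for 2144 (12.7%) and below for 2220 (13.2%). With upper quartile scaling these 4364 became 4360 genes, 2392 with P7 above and 1968 with P7 below. A difference of at least 2-fold without overlap was seen for 397 genes with P7 higher (2.36%) and 385 with P7 lower (2.29%). For 9574 genes (56.9%) the 95% interval of the log2 fold change lay within 1 unit of 0. The estimates fell above 0 for 50.9% of genes and below 0 for 49%, with a median of 0.00747. The number passing depended on the model: it was 77 without E17.5 replicate 1, 18 with limma-voom and 730 with DESeq2. Group counts below are therefore to be read against these shares, and only Igf2 is called.

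**Figure D1:**
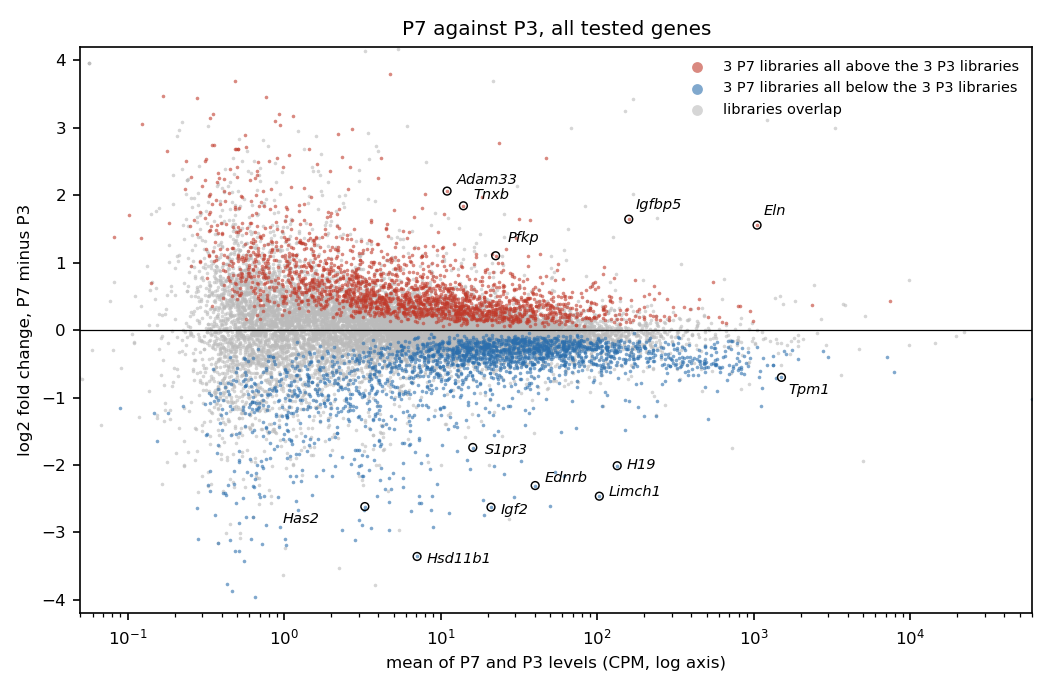
Log2 fold change (P7 minus P3, vertical axis) against the mean of the P7 and P3 levels in CPM (horizontal log axis) for the tested genes. Red points are genes whose 3 P7 libraries all lay above the 3 P3 libraries, blue points genes whose 3 P7 libraries all lay below, and grey points overlap; points beyond the axes are not drawn. Some of the genes named in the text are circled, with Igf2 at -2.62 and Eln at 1.56.

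Igf2, which encodes insulin-like growth factor II and is expressed from the paternal allele (GRCm38 chromosome 7, 142650766 to 142666816, minus strand), was the gene that fell. It had 5.83, 5.07 and 6.63 CPM in the P7 libraries, against 32.4, 35.3 and 40.7 CPM in the P3 libraries. No P7 library came near a P3 library, and the log2 fold change was -2.62 (SE 0.27, 95% interval -3.23 to -2.02, adjusted p = 0.0233). Taken in order from E17.5 to P10, the 4 stage means of Igf2 were 197, 36.1, 5.84 and 2.38 CPM. The annotation places other gene models over Igf2, Gm49394 on the same strand and the antisense gene Igf2os on the opposite one, and how the authors' counting divided reads among them is not given in the sources used here. Leaving out any of the 6 P7 and P3 libraries kept the log2 fold change between -2.73 and -2.54, but the adjusted p was then between 0.0590 and 0.222, so the call was lost without any one of them.

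Igf2 was lower together with its genomic neighbour and with the transcripts of proteins that bind its mRNA, none of which passed. H19, a maternally expressed long non-coding RNA (GRCm38 chromosome 7, 142575529 to 142578143, minus strand), had 75.4, 45.0 and 39.8 CPM at P7, against 239, 182 and 225 CPM at P3, and the libraries did not overlap (-2.01, adjusted p = 0.0740). The Igf2bp genes encode RNA-binding proteins of fetal cells that were named for binding Igf2 mRNA. Igf2bp3 had 2.79, 1.35 and 1.79 CPM at P7, against 5.25, 5.98 and 7.23 CPM at P3 (-1.63, adjusted p = 0.0660). Igf2bp2 had 0.598, 1.41 and 1.42 CPM at P7, against 2.93, 3.30 and 9.19 CPM at P3 (-2.17), and Igf2bp1 0.0997, 0.282 and 0.263 CPM at P7, against 1.84, 1.71 and 1.42 CPM at P3 (-2.92). Every P7 library lay below every P3 library for all 3 Igf2bp genes. Hmga1, an architectural chromatin protein of proliferating fetal tissue, also showed no overlap, with 2.14, 1.86 and 1.74 CPM at P7, against 6.96, 7.29 and 14.6 CPM at P3 (-2.32). These 4 belong to the oncofetal RNA-binding and chromatin genes, of which 6 of 14 tested members lay below P3 without overlap and 0 above, with a median log2 fold change of -0.25.

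Of the 21 fetal growth and imprinted genes tested, 19 had estimates below 0, 10 lay below P3 without overlap and 1, Igf2, passed, with a median of -0.27. Mest, an imprinted gene for a hydrolase-like protein, had 5.18, 5.07 and 6.84 CPM at P7, against 18.5, 22.8 and 17.8 CPM at P3 (-1.79). Cdkn1c, an imprinted inhibitor of cyclin-dependent kinases, had 41.2, 38.9 and 45.3 CPM at P7, against 54.0, 51.1 and 52.9 CPM at P3, a smaller difference (-0.33) with no overlap. The rest of the IGF system had estimates of both signs. Of 17 IGF ligands, receptors and binding proteins, 3 lay below and 2 above P3 without overlap (median -0.18). Igfbp5, which encodes an IGF-binding protein that also binds matrix, was among those above, with 210.1, 273 and 240.5 CPM at P7, against 97.5, 82.6 and 51.2 CPM at P3 (1.65, adjusted p = 0.125). Igf1, another ligand of the list, averaged 187 ± 31.5 CPM at P7 and 153 ± 26.4 CPM at P3 with overlapping libraries. Its mean at E17.5 was 495.5 CPM.

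Genes were then ranked by fold change among those that reached 10 CPM at P7 or P3 and did not overlap, with pseudogenes, predicted models, small RNAs and ribosomal protein copies left out. There were 836 such genes with P7 higher, 24 of them at least 2-fold, and 1304 with P7 lower, 62 of them at least 2-fold. Non-overlapping genes of any level and class were near even, 2144 with P7 higher and 2220 with P7 lower (397 and 385 by 2-fold or more). Leaving ribosomal proteins aside, 41.5% of protein-coding genes between 0 and 2 log2 CPM had estimates below 0, against 75.1% over 8. What level contributed to the excess of lower genes in the ranking was not tested. Among the 20 lowest were 9 of the alveolar fibroblast and lipofibroblast markers, which encode surface, matrix and metabolic proteins of the interstitial fibroblast. Tcf21, a transcription factor of lung mesenchyme, had 12.96, 21.9 and 25.8 CPM at P7, against 98.5, 99.8 and 61.5 CPM at P3 (-2.10, adjusted p = 0.168). Limch1, an actin-associated protein, had 15.1, 31.7 and 48.4 CPM at P7, against 179.8, 192 and 153 CPM at P3 (-2.46, adjusted p = 0.230). P7 replicate 1 was the lowest of the P7 libraries for both genes, and no P7 library reached a P3 library. Npnt encodes nephronectin, a matrix ligand of the integrin whose alpha subunit Itga8 encodes. Npnt had 6.83, 14.3 and 21.0 CPM at P7, against 91.3, 101 and 65.5 CPM at P3 (-2.61), and Itga8 had 5.18, 8.68 and 12.2 CPM at P7, against 44.3, 41.5 and 20 CPM at P3 (-2.02). Col13a1, a transmembrane collagen, had 4.19, 4.96 and 7.42 CPM at P7, against 31.9, 30.2 and 32.8 CPM at P3 (-2.52, adjusted p = 0.125). These adjusted p-values include the spread of E17.5 replicate 1, which stood apart for these markers. In the same edgeR test without that library, Col13a1 (adjusted p = 0.00997) and Tcf21 (0.0247) were among the 77 genes that passed. Limch1, Npnt and Itga8 were not. That library was singled out by these same markers, so leaving it out narrows their spread, and passing without it is no separate support. Without E17.5 replicate 2 the number passing was 2, and without E17.5 replicate 3 it was 3.

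Over the whole list, 20 of 22 tested alveolar fibroblast markers had estimates below 0 and 16 lay below P3 without overlap, while 1 lay above, with a median log2 fold change of -1.59. Their summed level was 379, 477 and 562 CPM in the P7 libraries, against 1203, 1216 and 871 CPM in the P3 libraries. The exception above P3 was Lpl, lipoprotein lipase, with 47.4, 54.2 and 53.7 CPM at P7, against 36.5, 42.8 and 30.4 CPM at P3 (0.50). Plin2, which coats lipid droplets, averaged 11.3 ± 0.937 CPM at P7 and 16.1 ± 3.41 CPM at P3 (-0.52). Whether fewer alveolar fibroblasts were in the P7 sort was not tested.

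Further genes among the 20 lowest, outside that list, are of mixed function. Hsd11b1, the reductase that regenerates active glucocorticoid, had 0.449, 0.733 and 2.58 CPM at P7, against 15.8, 13.8 and 9.12 CPM at P3 (-3.36, adjusted p = 0.173). Ednrb, the endothelin receptor type B, had 18.7, 10.8 and 11.1 CPM at P7, against 55.3, 56.3 and 88.8 CPM at P3 (-2.30, adjusted p = 0.0643). P3 replicate 3 was the highest library for Ednrb, and the lowest P3 library was still above all P7 libraries. Cpm, carboxypeptidase M of the cell surface, had 2.14, 3.27 and 9.31 CPM at P7, against 30.6, 38.05 and 29.7 CPM at P3 (-2.74, adjusted p = 0.0782), and Adh1, an alcohol dehydrogenase that also oxidises retinol, had 21.5, 20.9 and 25.03 CPM at P7, against 126, 113 and 63.8 CPM at P3 (-2.17). Meox2, a mesodermal homeobox gene, averaged 2.71 ± 1.63 CPM at P7 and 14.8 ± 6.86 CPM at P3, with P7 below P3 in every library. Like the alveolar fibroblast markers, Hsd11b1 and Adh1 stood high in E17.5 replicate 1. Hsd11b1 had 166.3 CPM there, against 37.7 and 26.4 CPM in the other E17.5 libraries, and Adh1 502 CPM, against 179 and 160.5 CPM. For Ednrb and Cpm, E17.5 replicate 1 was the lowest E17.5 library.

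**Figure D2:**
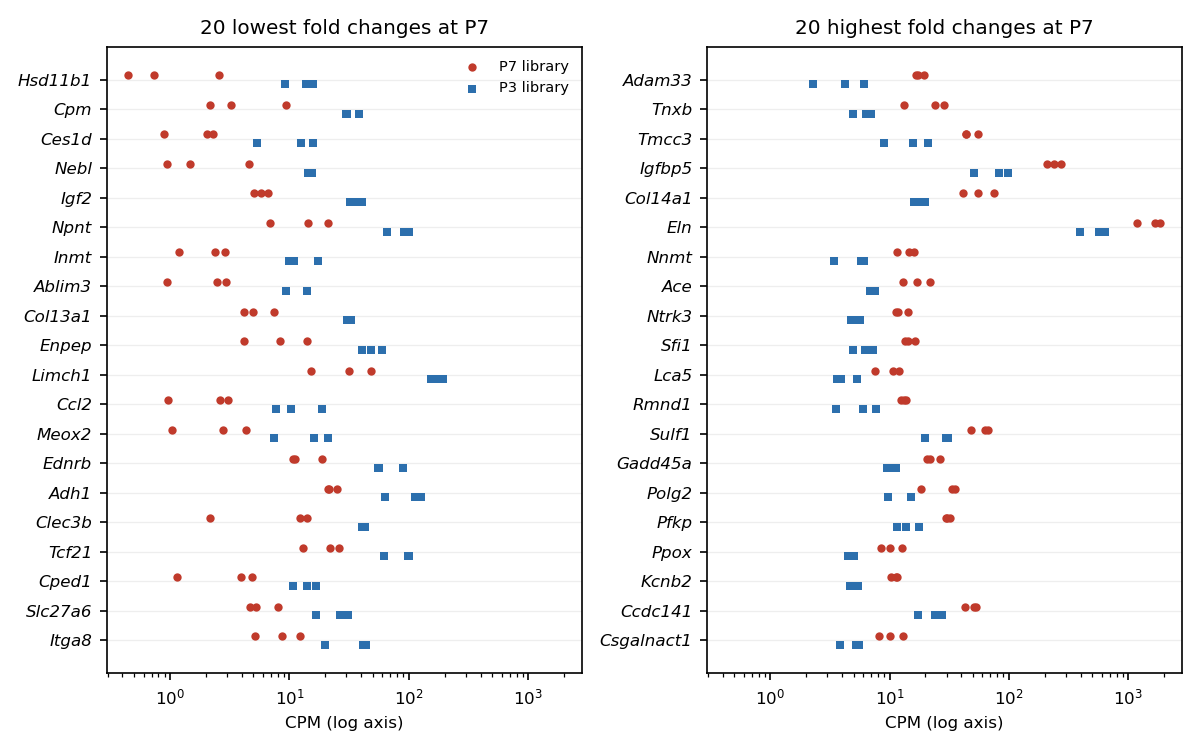
CPM per library (horizontal log axis) of the 20 genes with the lowest (left) and the 20 with the highest (right) log2 fold change among non-overlapping genes of at least 10 CPM. Red circles are the 3 P7 libraries and blue squares the 3 P3 libraries; non-overlap was a condition of the ranking, so the gap between colours is no separate result.

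With the classes left out of the ranking above also left out here, the genes of lowest p after Igf2 lay just outside the threshold. Ednrb, above, and Pfkp, with the glycolytic genes, are among them, and the others follow. Has2, the main hyaluronan synthase of mesenchyme, had 0.997, 0.901 and 0.842 CPM at P7, against 4.57, 5.07 and 7.30 CPM at P3 (-2.62, adjusted p = 0.0532). S1pr3, a receptor for sphingosine 1-phosphate, had 8.17, 6.31 and 7.68 CPM at P7, against 20.4, 22.3 and 31.5 CPM at P3 (-1.74, adjusted p = 0.0532). Both had stood higher still at E17.5, at 21.4 CPM for Has2 and 93.8 CPM for S1pr3. In the other direction, Kctd16, an auxiliary subunit of the GABA-B receptor, had 3.54, 6.87 and 4.16 CPM at P7, against 0.477, 0.855 and 0.473 CPM at P3 (2.98, adjusted p = 0.0546). Kcnb2, a voltage-gated potassium channel, had 10.3, 11.5 and 11.3 CPM at P7, against 5.32, 5.41 and 4.66 CPM at P3 (1.099, adjusted p = 0.0643). Pdgfrl, a PDGF receptor-like protein, had 36.2, 42.5 and 40.2 CPM at P7, against 24.96, 23.1 and 22.4 CPM at P3 (0.76, adjusted p = 0.0643). Snx29, a sorting nexin, had 13.8, 13.1 and 12.6 CPM at P7, against 8.46, 8.26 and 8.11 CPM at P3 (0.67, adjusted p = 0.0546), and Sfi1, a centrin-binding protein of the spindle, had 16.2, 14.3 and 13.4 CPM at P7, against 6.27, 7.29 and 4.93 CPM at P3 (1.24, adjusted p = 0.0643). None of these 7 genes had overlapping libraries.

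The 20 highest fold changes included 5 genes for matrix proteins or for enzymes that act on matrix sugars, grouped here after their values were seen. The elastic fibre, collagen, matricellular and metalloproteinase lists had 1 member each among these 20. Eln, which encodes the elastin precursor tropoelastin (GRCm38 chromosome 5, 134702593 to 134747323, minus strand), had 1189, 1857 and 1661 CPM at P7, against 634, 570.4 and 394 CPM at P3 (1.56, 95% interval 1.02 to 2.09, adjusted p = 0.0643). The gap between the lowest P7 library and the highest P3 library was wider than the range of the P3 libraries and narrower than that of the P7 libraries. Tnxb, the matrix glycoprotein tenascin X, had 13.2, 24.1 and 28.4 CPM at P7, against 6.34, 4.90 and 7.03 CPM at P3 (1.84, adjusted p = 0.0705). Col14a1, a fibril-associated collagen, had 41.2, 74.3 and 54.6 CPM at P7, against 19.98, 18.6 and 16.1 CPM at P3 (1.64, adjusted p = 0.120). Sulf1, an extracellular sulfatase that trims heparan sulfate, averaged 59.2 ± 9.78 CPM at P7 and 26.9 ± 6.06 CPM at P3, and Csgalnact1, an enzyme of chondroitin sulfate synthesis, 10.4 ± 2.35 CPM at P7 and 4.87 ± 0.920 CPM at P3.

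Genes for elastin's partners had estimates of both signs. Of 18 elastic fibre genes, 5 lay above and 5 below P3 without overlap, with a median of -0.11. Ltbp2, which binds fibrillin microfibrils, was above, with 602, 686 and 753 CPM at P7, against 424, 429 and 393 CPM at P3 (0.71, adjusted p = 0.144). Mfap4, a microfibril-associated protein, was below, with 81.3, 155 and 180.2 CPM at P7, against 373, 392 and 238 CPM at P3 (-1.27). Fbn1, which encodes the scaffold protein fibrillin 1, averaged 339 ± 23.9 CPM at P7 and 289.7 ± 19.4 CPM at P3. Lox, which crosslinks elastin and collagen, averaged 22.7 ± 2.47 CPM at P7 and 32.8 ± 1.86 CPM at P3 (-0.53, libraries not overlapping), so that the estimates for the fibre's core protein and for its crosslinking enzyme had opposite signs.

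Collagens and basement membrane genes both had members on either side of 0. Of 17 fibrillar and associated collagen genes, 7 lay above and 1 below P3 without overlap (median 0.19). Col3a1, the major collagen III chain, had 2499, 2833 and 2715 CPM at P7, against 2073, 2000 and 2130.0 CPM at P3 (0.38), and Col1a2, a collagen I chain, had 826, 886 and 979.9 CPM at P7, against 719, 742 and 638 CPM at P3 (0.36). Of 23 basement membrane genes, 4 lay above and 9 below (median -0.15). Col4a5, a minor collagen IV chain, had 8.57, 6.71 and 8.94 CPM at P7, against 14.1, 15.9 and 17.9 CPM at P3 (-0.98, adjusted p = 0.0740), and its neighbour Col4a6 had 1.40, 1.41 and 1.79 CPM at P7, against 2.80, 2.96 and 4.26 CPM at P3 (-1.12). Col18a1, the source of endostatin, averaged 6.68 ± 2.17 CPM at P7 and 17.8 ± 2.09 CPM at P3.

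Secreted and membrane metalloproteinases leaned upward. Of 22 metalloproteinases and inhibitors, 9 lay above and 2 below P3 without overlap, and 7 and 2 had an unadjusted p under 0.05 (median 0.24). Adam33, a membrane metalloproteinase of lung mesenchyme, had 17.3, 16.7 and 19.3 CPM at P7, against 4.23, 6.15 and 2.30 CPM at P3 (2.06, adjusted p = 0.0643). Adamts10, a secreted protease that acts in microfibril assembly, had 160.4, 163 and 162 CPM at P7, against 106, 97.1 and 81.9 CPM at P3 (0.77, adjusted p = 0.0740). Adam19 had 129, 111 and 128 CPM at P7, against 84.0, 83.0 and 69.7 CPM at P3 (0.64, adjusted p = 0.102). The 3 P7 libraries lay above the 3 P3 libraries for each of these proteases. Timp3, a matrix-bound inhibitor, averaged 68.1 ± 9.92 CPM at P7 and 94.5 ± 20.7 CPM at P3, whereas Timp2 averaged 198 ± 2.45 CPM at P7 and 163 ± 18.97 CPM at P3. Of 13 hyaluronan and versican matrix genes, 4 lay above and 3 below without overlap. Besides Has2 these included Cemip, which drives hyaluronan breakdown, with 7.97, 9.35 and 7.99 CPM at P7, against 3.62, 3.59 and 1.89 CPM at P3 (1.47). The synthase thus had a negative and the breakdown factor a positive estimate, and neither passed.

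Small proteoglycans, which organise collagen fibrils, had a median of 0.32 over 11 tested genes, with 9 estimates above 0. Of these genes, 3 lay above and 1 below P3 without overlap, the one below being Fmod, fibromodulin, with 4.09, 2.42 and 4.37 CPM at P7, against 13.3, 12.8 and 6.96 CPM at P3 (-1.599, adjusted p = 0.0921). Among matricellular proteins, Thbs2, a thrombospondin, averaged 102 ± 1.31 CPM at P7 and 67.4 ± 15.8 CPM at P3 without overlap (0.59), and Spon1, a spondin, 6.18 ± 0.990 CPM at P7 and 23.5 ± 2.35 CPM at P3 without overlap (-1.92). Over the 22 tested members 5 lay above and 4 below.

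**Figure D3:**
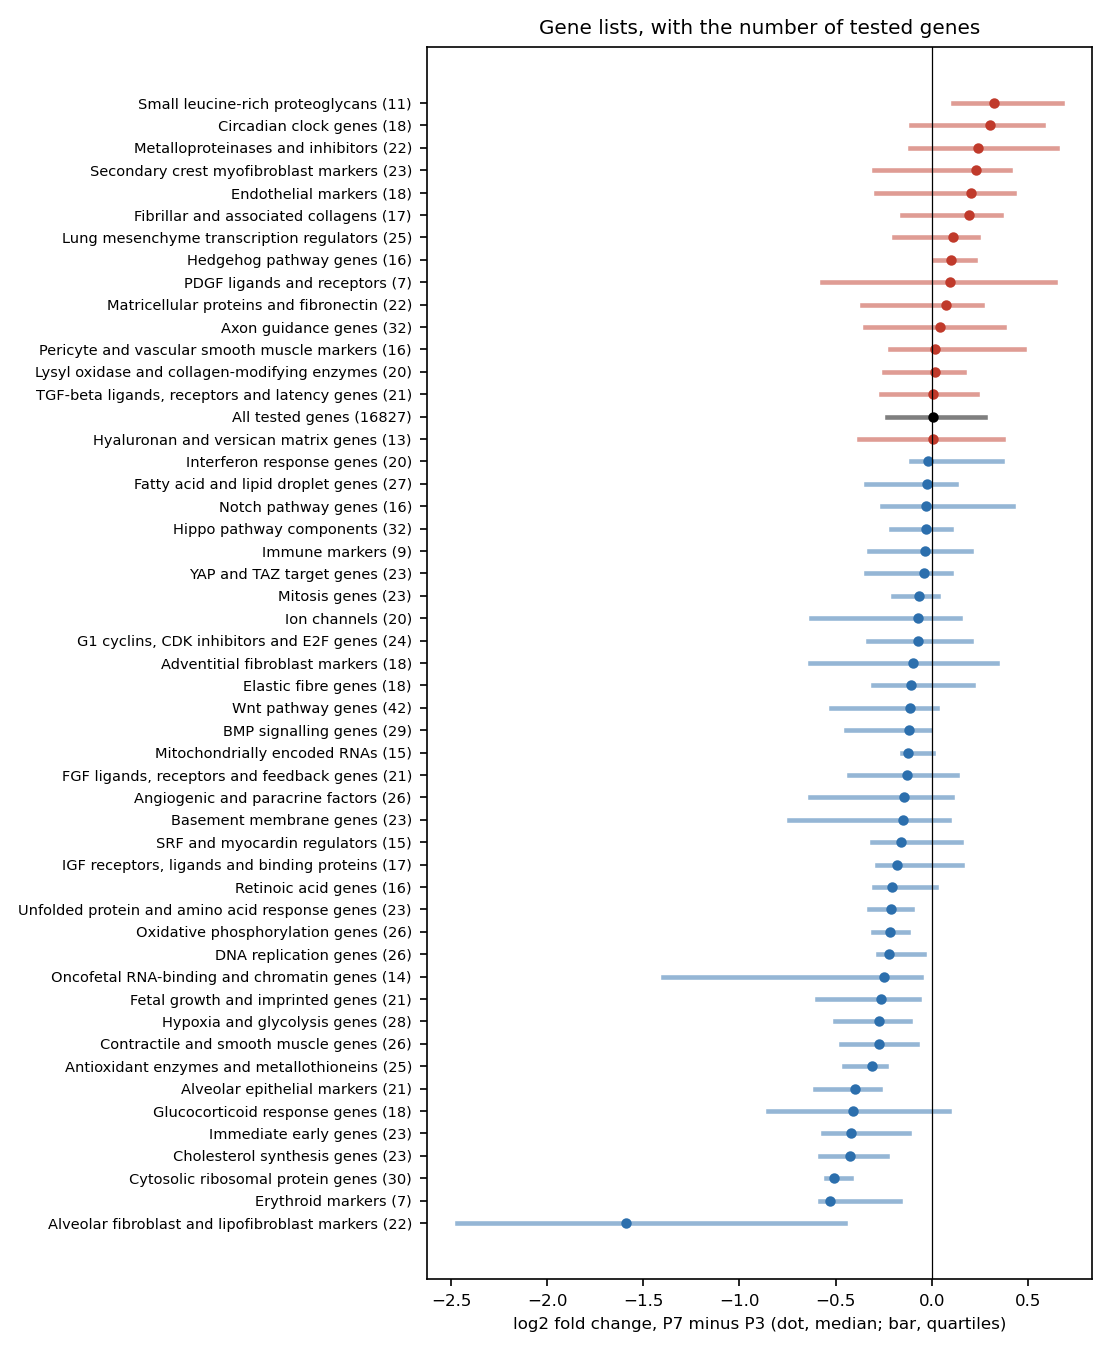
Median log2 fold change (P7 minus P3) of the tested members of each gene list with at least 5 tested genes; bars span the first to the third quartile of members and the number of tested genes stands in brackets. All tested genes (black) have a median of 0.00747, and the lowest medians are those of the alveolar fibroblast markers (-1.59), the erythroid markers (-0.53) and the cytosolic ribosomal protein genes (-0.51).

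The contractile genes and the other myofibroblast markers had medians of opposite sign. Of 26 contractile and smooth muscle genes, 22 had estimates below 0, 14 lay below and 2 above P3 without overlap (median -0.27). Abundant genes leaned below 0 in general: of protein-coding genes over 8 on the log2 CPM scale, ribosomal proteins left out, 75.1% were below 0. What level contributed to the contractile values was not tested. Tpm1, a tropomyosin that lies along actin filaments, had 1243, 929 and 1268 CPM at P7, against 1718, 1683 and 2185 CPM at P3 (-0.70, adjusted p = 0.282). Myl6, a myosin light chain, had 1114, 1071 and 1293 CPM at P7, against 1526, 1523 and 1469 CPM at P3 (-0.38), and Cnn2, a calponin, had 103, 80.8 and 103 CPM at P7, against 148, 132 and 136 CPM at P3 (-0.54). The libraries of these 3 genes did not overlap. Myh11, the smooth muscle myosin heavy chain, averaged 518 ± 57.4 CPM at P7 and 518 ± 53.7 CPM at P3, and Mylk, the kinase that activates it, 217 ± 9.15 CPM at P7 and 216 ± 2.77 CPM at P3, both with overlapping libraries.

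Regulators of this programme were divided. Fhl2, a LIM-domain cofactor of serum response factor, had 29.9, 21.6 and 21.1 CPM at P7, against 37.3, 54.0 and 70.0 CPM at P3 (-1.15, adjusted p = 0.155). Ablim1, an actin-binding LIM protein, had 97.5, 84.6 and 96.6 CPM at P7, against 70.9, 70.3 and 57.3 CPM at P3 (0.49). Both genes were without overlap, and over the list 3 lay above and 6 below of 15 tested.

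Of 23 secondary crest myofibroblast markers, 15 had estimates above 0, 9 lay above and 4 below P3 without overlap (median 0.23). Mustn1, a small nuclear protein of musculoskeletal tissue, had 132, 139 and 167 CPM at P7, against 96.6, 80.0 and 53.4 CPM at P3 (0.93, adjusted p = 0.166). Wnt5a, a non-canonical Wnt ligand, had 123, 107 and 120.5 CPM at P7, against 93.1, 83.6 and 51.8 CPM at P3 (0.62), and Prdm6, a smooth muscle transcription regulator, had 65.9, 76.0 and 73.3 CPM at P7, against 59.7, 56.8 and 52.6 CPM at P3 (0.35). Members below P3 included Ednrb, Acta2 and Actg2, the last with 373 ± 97.2 CPM at P7 and 529 ± 29.1 CPM at P3. The summed level of the list was 6622, 6080.0 and 6999 CPM at P7, against 6567, 6213 and 6454 CPM at P3, with overlap. Its median was 0.13 without P3 replicate 3 and 0.14 without P7 replicate 3.

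Ligands and receptors of the main signalling pathways had estimates of both signs, and none passed. Among 7 PDGF genes, Pdgfrb, the receptor of pericytes and smooth muscle, had 49.9, 65.5 and 49.6 CPM at P7, against 36.1, 31.4 and 28.1 CPM at P3 (0.79, adjusted p = 0.155), beside the overlapping values of Pdgfra. Pdgfc, a ligand of Pdgfra, averaged 1.58 ± 0.0598 CPM at P7 and 2.63 ± 0.0969 CPM at P3 (-0.73). Among 21 TGF-beta genes, 5 lay above and 3 below. Tgfb3, a ligand, had 117, 116 and 126 CPM at P7, against 76.9, 81.4 and 60.6 CPM at P3 (0.71, adjusted p = 0.125), and Ldlrad4, an inhibitor of receptor-regulated SMADs, had 34.8, 36.9 and 37.9 CPM at P7, against 21.4, 22.8 and 18.6 CPM at P3 (0.80). The feedback inhibitor Smad7 averaged 59.6 ± 1.97 CPM at P7 and 90.8 ± 28.9 CPM at P3 (-0.61).

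Of 42 Wnt pathway genes, 12 lay below and 4 above P3 without overlap (median -0.11). Wnt2, a canonical ligand of lung mesenchyme that is also in the alveolar fibroblast list, had 0.498, 0.676 and 1.31 CPM at P7, against 6.41, 7.92 and 4.86 CPM at P3 (-2.94). Sfrp2, a secreted Wnt antagonist, averaged 2.90 ± 1.05 CPM at P7 and 7.28 ± 1.32 CPM at P3 (-1.32), and Znrf3, a ligase that removes Frizzled receptors and is itself a Wnt target, 7.59 ± 1.33 CPM at P7 and 12.5 ± 2.22 CPM at P3 (-0.72).

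Of 21 FGF genes, 5 lay below and 1 above. Fgf7, a mesenchymal ligand for epithelium, had 16.9, 15.4 and 17.7 CPM at P7, against 21.0, 23.0 and 28.2 CPM at P3 (-0.53, adjusted p = 0.134), and Fgf10, the branching ligand, averaged 1.05 ± 0.355 CPM at P7 and 3.15 ± 0.980 CPM at P3 (-1.58). Among 16 Hedgehog genes, 13 had estimates above 0 (median 0.10). Ptch1, the receptor that is also a target of the pathway, had 148, 125 and 143 CPM at P7, against 104, 99.6 and 102 CPM at P3 (0.44) without overlap. Heyl, a Notch target of mural cells, averaged 4.96 ± 1.67 CPM at P7 and 1.96 ± 0.298 CPM at P3 (1.33), and 4 of 16 Notch genes lay above P3 without overlap, with 1 below. Aldh1a1, a retinaldehyde dehydrogenase, had 11.5, 9.80 and 9.57 CPM at P7, against 33.6, 21.5 and 26.5 CPM at P3 (-1.40), one of 3 retinoic acid genes of 16 that lay below without overlap.

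The series title concerns the Hippo pathway, whose kinases restrain the coactivators YAP (Yap1) and TAZ (Wwtr1). Of 32 pathway components, 4 lay above and 6 below P3 without overlap, with a median of -0.03, and 29 had a 95% interval within 1 log2 unit of 0. Yap1 had 48.2, 46.0 and 50.4 CPM at P7, against 55.5, 50.02 and 61.5 CPM at P3, with overlap (-0.21, 95% interval -0.44 to 0.02). Wwtr1 had 47.1, 46.2 and 49.1 CPM at P7, against 51.4, 53.0 and 73.8 CPM at P3, without overlap (-0.32, 95% interval -0.77 to 0.12). Amotl1, a junctional angiomotin that binds YAP, had 78.9, 73.0 and 79.4 CPM at P7, against 55.6, 57.0 and 51.0 CPM at P3 (0.50, adjusted p = 0.0921), and Stk4, a core kinase, averaged 22.0 ± 2.95 CPM at P7 and 16.2 ± 1.42 CPM at P3 (0.44). Both were above P3 in every library. Of 23 YAP and TAZ target genes, 3 lay above and 4 below (median -0.04). Ctgf (Ccn2) had 296, 107 and 149 CPM at P7, against 242, 192 and 381 CPM at P3, and Cyr61 (Ccn1) had 964, 323 and 370.5 CPM at P7, against 541, 503 and 495 CPM at P3. P7 replicate 1 was the highest P7 library for both targets, the spread among P7 libraries exceeded the difference between stages, and the intervals reached -1.52 for Ctgf and 0.87 for Cyr61.

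Glucocorticoid-responsive genes include feedback genes that report hormone action. Of 18 tested, 6 lay below and 1 above P3 without overlap (median -0.41, or -0.18 without P3 replicate 1). Zbtb16, a transcription factor induced by the hormone, had 0.199, 0.225 and 0.158 CPM at P7, against 3.07, 0.855 and 1.62 CPM at P3 (-3.19, adjusted p = 0.0643). Fkbp5, a receptor co-chaperone, had 7.77, 6.76 and 9.36 CPM at P7, against 13.8, 11.7 and 19.2 CPM at P3 (-0.90, adjusted p = 0.125). Glul, glutamine synthetase, was on the other side, with 67.7, 66.8 and 81.6 CPM at P7, against 55.6, 56.4 and 39.5 CPM at P3 (0.51). Zbtb16 had averaged 58.4 CPM at E17.5 and Fkbp5 87.0 CPM, so that in CPM both genes differed more between E17.5 and P3 than between P7 and P3.

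Guidance molecules made up one of the lists with non-overlapping genes on both sides, 9 above and 8 below of 32. Unc5c, a netrin receptor, had 1.65, 3.72 and 3.73 CPM at P7, against 11.9, 14.6 and 9.19 CPM at P3 (-1.97), and Ephb2, an ephrin receptor, averaged 4.80 ± 0.437 CPM at P7 and 9.88 ± 1.95 CPM at P3 (-1.04). Efnb2, an ephrin ligand, had 44.4, 53.0 and 48.7 CPM at P7, against 34.6, 35.5 and 23.1 CPM at P3 (0.65), and Sema3c, a secreted semaphorin, averaged 83.1 ± 6.03 CPM at P7 and 56.0 ± 6.95 CPM at P3 (0.57). The libraries of these 4 genes did not overlap.

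Cytosolic ribosomal protein genes had the largest share of estimates of one sign, and of non-overlapping genes, among the lists with at least 5 tested members. These proteins form the ribosome with ribosomal RNA and are made in step with cell growth. All 30 members of the list had estimates below 0, 27 lay below P3 without overlap and 26 had an unadjusted p under 0.05, with a median of -0.51 and 0 passing. Of the tested Rps and Rpl genes annotated as protein-coding, 80 of 80 had estimates below 0, between -0.86 and -0.00719. Rps14 had 329, 283 and 332 CPM at P7, against 498, 466 and 537 CPM at P3 (-0.67, adjusted p = 0.0921), and Rplp0, of the ribosomal stalk, had 625, 547 and 630.2 CPM at P7, against 905, 812 and 934 CPM at P3 (-0.56, adjusted p = 0.126). The P7 libraries lay below the P3 libraries for both genes. Many of these genes have processed pseudogenes that can share their reads, so single values are uncertain. The processed pseudogenes Rps3a2 and Rps3a3, named here after their values were seen, were on the other side: Rps3a3 had 65.0, 80.1 and 84.4 CPM at P7, against 0.682, 0.342 and 0.270 CPM at P3, and Rps3a2 had 61.7, 84.8 and 96.4 CPM at P7, against 11.5, 15.4 and 14.2 CPM at P3, and neither passed.

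Short and abundant mRNAs leaned the same way. Among protein-coding genes other than ribosomal proteins, those with a longest transcript of up to 1000 nt had a median log2 fold change of -0.17, with 66.8% below 0, and those over 6000 nt a median of 0.04, with 44.0% below 0. For the 86 genes that were both short and above 6 on the log2 CPM scale the median was -0.29, with 94.2% below 0. By level alone, 67.1% of the non-ribosomal protein-coding genes from 6 to 8 on that scale and 75.1% of those over 8 were below 0. From 0 to 2 the share was 41.5%. What length and level contributed to the ribosomal protein values, and to those of the other lists, was not tested.

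**Figure D4:**
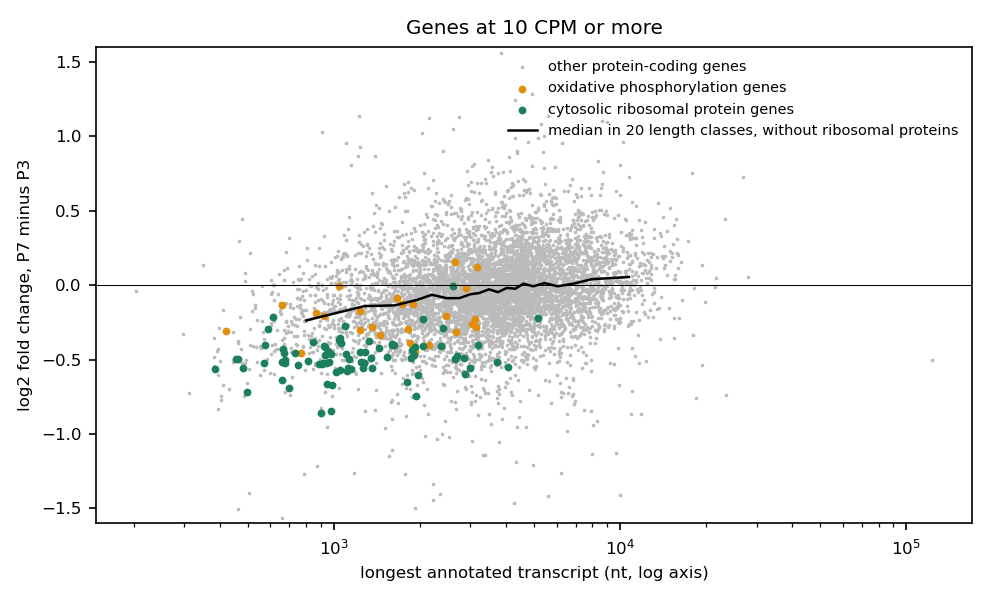
Log2 fold change (P7 minus P3) against the longest annotated transcript (nt, log axis) for protein-coding genes with a mean level of at least 10 CPM. Green points are the cytosolic ribosomal protein genes, orange points the oxidative phosphorylation list, grey points other genes, and the black line joins medians of length classes without ribosomal proteins; the green points lie below 0 and mostly below the line.

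Nuclear genes of oxidative phosphorylation, which encode respiratory chain and ATP synthase subunits, had 23 of 26 estimates below 0 and 12 below P3 without overlap (median -0.22). Atp5b, the catalytic ATP synthase subunit, had 305, 311 and 362 CPM at P7, against 444, 434 and 459.8 CPM at P3 (-0.45, adjusted p = 0.134). The mitochondrially encoded RNAs had a median of -0.12, with 1 of 15 below P3 without overlap. Proteasome subunits had 34 of 37 estimates below 0 (median -0.20), and mitochondrial ribosomal proteins 54 of 77 (median -0.09). Of 25 antioxidant enzymes and metallothioneins, 14 lay below and 1 above (median -0.31). Sod1, the cytosolic superoxide dismutase, had 169, 181 and 184 CPM at P7, against 242, 242 and 250.1 CPM at P3 (-0.46), whereas Sod3, the secreted form, was the member above, with 15.3, 22.0 and 24.8 CPM at P7, against 14.3, 11.8 and 10.7 CPM at P3 (0.75).

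Cell cycle genes were grouped by replication and mitosis. Of 26 DNA replication genes, 22 had estimates below 0 and 13 lay below P3 without overlap, but 2 had an unadjusted p under 0.05 (median -0.22). Mcm3, a subunit of the replicative helicase, had 26.4, 27.1 and 28.7 CPM at P7, against 37.6, 36.5 and 42.6 CPM at P3 (-0.51). Of 23 mitosis genes, 4 lay below and 2 above, with 0 and 0 at an unadjusted p under 0.05 (median -0.06). The summed mitosis level was 643, 594 and 609.5 CPM at P7, against 619, 667 and 612 CPM at P3, and the ranges overlapped. Cdkn1a, which encodes the cell cycle inhibitor p21, had 13.3, 14.9 and 12.9 CPM at P7, against 19.9, 18.97 and 44.2 CPM at P3 (-1.01), and Rbl2, a retinoblastoma-like repressor, averaged 18.5 ± 2.11 CPM at P7 and 12.8 ± 1.58 CPM at P3 (0.54). Clustered histone genes had 63 of 64 estimates below 0 (median -0.44), with 2 below P3 without overlap; their transcripts lack poly(A) tails and many are near-identical copies, so their values are uncertain.

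Cholesterol synthesis genes are driven by SREBP2, which binds sterol response elements in their promoters together with the CCAAT-binding factor NF-Y. The stretch before the start of 3 of the genes with lower estimates is shown, from RefSeq on build GRCm38.p6. Each carries CCAAT, and only that of Hmgcs1 also matches TCACNCCAC, the form of the sterol response element that was searched. Other forms of the element were not searched, so a stretch without a match may still hold one. Capitals mark CCAAT on either strand (ATTGG where it lies on the other strand) and, in Hmgcs1, the match to TCACNCCAC. The sequences run 5′ to 3′ on the gene's strand and end at the base before the annotated start.
Hmgcs1, chr13:119690101-119690350, plus strand: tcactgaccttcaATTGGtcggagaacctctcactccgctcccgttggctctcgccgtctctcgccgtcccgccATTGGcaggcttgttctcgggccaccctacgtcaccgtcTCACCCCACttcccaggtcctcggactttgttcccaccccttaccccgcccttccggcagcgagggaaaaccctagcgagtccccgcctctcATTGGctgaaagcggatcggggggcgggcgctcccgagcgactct
Cyp51, chr5:4104698-4104947, minus strand: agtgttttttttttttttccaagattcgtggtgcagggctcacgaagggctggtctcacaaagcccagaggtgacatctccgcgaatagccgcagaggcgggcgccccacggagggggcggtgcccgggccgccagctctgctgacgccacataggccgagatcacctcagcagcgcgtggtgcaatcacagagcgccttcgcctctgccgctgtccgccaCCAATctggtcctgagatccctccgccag
Lss, chr10:76531355-76531604, plus strand: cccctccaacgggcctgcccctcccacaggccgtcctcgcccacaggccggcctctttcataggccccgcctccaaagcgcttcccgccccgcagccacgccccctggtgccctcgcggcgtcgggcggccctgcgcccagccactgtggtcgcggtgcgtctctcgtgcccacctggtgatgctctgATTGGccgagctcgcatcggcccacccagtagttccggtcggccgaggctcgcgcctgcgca

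CCAAT was found in the 250 bases before a start of 16 of the 16 cholesterol genes that matched a RefSeq promoter, of 23 tested. Over all promoters searched, 37.5% of 27025 genes held it, and 40.1% of the 10196 tested genes with a promoter. TCACNCCAC, also searched on both strands, was in 1 cholesterol promoter, that of Hmgcs1, beginning 137 bases before the start, and in 1.22% of all genes. The CCAAT letters began 29 bases before the start of Cyp51 and 62 bases before that of Lss. These matches describe sequence and not binding.

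Of the 23 cholesterol synthesis genes, 22 had estimates below 0 and 11 an unadjusted p under 0.05, and 7 lay below P3 without overlap, with a median of -0.43. Hmgcs1, the HMG-CoA synthase, had 31.7, 24.3 and 23.9 CPM at P7, against 28.4, 58.3 and 45.6 CPM at P3 (-0.73, adjusted p = 0.222), and the libraries overlapped. Cyp51, the lanosterol demethylase, had 19.9, 19.2 and 16.1 CPM at P7, against 21.9, 37.7 and 38.1 CPM at P3 (-0.82, adjusted p = 0.205). For the list as a whole, P3 replicate 2 was the highest library, with summed levels of 314, 272 and 270.4 CPM at P7, against 324, 477 and 391.9 CPM at P3. Lss, lanosterol synthase, averaged 3.84 ± 1.54 CPM at P7 and 6.96 ± 2.46 CPM at P3 (-0.86) with overlap. Fatty acid and lipid droplet genes had a median of -0.03, with 5 below and 1 above of 27.

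Glycolytic and hypoxia-responsive genes had 25 of 28 estimates below 0, with 12 below and 2 above P3 without overlap (median -0.27). Hk2, an inducible hexokinase, had 1.35, 1.30 and 0.842 CPM at P7, against 2.86, 5.70 and 7.09 CPM at P3 (-2.16), and Pgam1, phosphoglycerate mutase, had 44.8, 36.4 and 40.4 CPM at P7, against 52.0, 51.9 and 67.6 CPM at P3 (-0.50). Pfkp, the platelet isoform of phosphofructokinase, was opposite to them, with 29.8, 30.0 and 32.2 CPM at P7, against 17.53, 11.6 and 13.7 CPM at P3 (1.104, adjusted p = 0.0643).

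Immediate early genes respond within minutes to stimuli, including tissue dissociation. Of 23 tested, 20 had estimates below 0 and 6 lay below P3 without overlap (median -0.42). Klf4 had 48.8, 37.0 and 49.1 CPM at P7, against 85.3, 78.8 and 115 CPM at P3 (-1.05, adjusted p = 0.117), and Fosb had 149, 74.5 and 89.7 CPM at P7, against 234, 215 and 201 CPM at P3 (-1.05). The summed level of the list overlapped, with 5850.0, 3490.0 and 3886 CPM at P7, against 6001, 5759 and 3852 CPM at P3, so that the libraries differed as much within a stage as between stages. Clock genes had a median of 0.30. Per3 had 8.37, 10.5 and 9.36 CPM at P7, against 5.18, 4.10 and 2.77 CPM at P3 (1.23, adjusted p = 0.102), Nr1d1, a repressor of the clock, averaged 9.19 ± 3.49 CPM at P7 and 3.36 ± 1.38 CPM at P3 (1.45), and Cry1, a repressor of another arm, 12.3 ± 1.89 CPM at P7 and 19.6 ± 5.88 CPM at P3 (-0.67). The hour at which lungs were taken is not given in the labels, and its part in these values was not tested.

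Markers of other lung cells were low but present. Alveolar epithelial markers summed to 171, 209 and 157 CPM in the P7 libraries, against 220.3, 218 and 306 CPM in the P3 libraries, and 19 of 21 had estimates below 0 (8 without overlap, median -0.40). A large part of that sum was Sftpc, the surfactant protein gene of type II cells, with 84.6, 108 and 74.3 CPM at P7, against 112, 109 and 174 CPM at P3. The P7 libraries were below the P3 libraries for Sftpc, and every one of the 21 markers was detected. Endothelial markers summed to 90.3, 118 and 98.5 CPM at P7, against 131, 135 and 193 CPM at P3. That sum includes Ednrb, without which it was 71.6, 108 and 87.4 CPM at P7, against 76.0, 78.9 and 104 CPM at P3, with overlap. The estimate was above 0 for 13 of the 18 tested markers (median 0.20), and of the 18 tested, 2 lay below P3 and 0 above without overlap. Airway epithelial markers summed to 122, 146 and 180.0 CPM at P7, against 85.2, 118 and 137 CPM at P3, with overlap, and 4 of 4 tested had estimates above 0 (median 0.46). Neural and Schwann cell markers summed to 12.2, 15.04 and 11.6 CPM at P7, against 10.6, 7.35 and 6.15 CPM at P3, without overlap, with 1 tested member. Immune markers summed to 21.6, 30.9 and 24.4 CPM at P7, against 26.4, 26.6 and 25.3 CPM at P3, and 2 of 20 were at 0 in all 6 libraries. Pericyte and vascular smooth muscle markers had 5 above and 3 below P3 without overlap, and adventitial fibroblast markers 1 above and 5 below. Erythroid markers summed to 39.5, 74.0 and 67.2 CPM at P7, against 58.6, 81.9 and 77.3 CPM at P3, and mesothelial markers to 1.74, 3.77 and 3.63 CPM at P7, against 2.59, 3.42 and 4.66 CPM at P3. The part of these cells in the gene groups above was not tested.

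The step over this week was set against the steps before and after it in the same model. No gene differed between the P3 to P7 step and the P7 to P10 step at an adjusted p under 0.05 (0% of genes), and 1727 did at an unadjusted p under 0.05 (10.3%), where the P7 libraries enter both steps with opposite signs. Between the P3 to P7 step and the E17.5 to P3 step, 1537 genes differed (9.13%), 601 of them with the later step above the earlier (3.57%). The P3 libraries are shared in that contrast. Eln had a log2 fold change of 1.56 over the week and -2.91 across birth, a difference of 4.47 (SE 0.46, adjusted p = 0.00111). Col14a1 had 1.64 over the week and -1.99 across birth (difference 3.63, adjusted p = 0.00844). For both matrix genes P3 was the lowest of the 4 stages, with mean levels at E17.5, P3, P7 and P10 of 4001, 533, 1569 and 4633 CPM for Eln.

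Mcm3 and Tpm1 had estimates of opposite sign over the week and across birth. Mcm3 had -0.51 over the week and 2.22 across birth (difference -2.73, adjusted p = 0.00155), and Tpm1 -0.70 and 1.12 (difference -1.82, adjusted p = 0.0309). The cholesterol genes Hmgcs1 (-0.73 over the week, 1.19 across birth, adjusted p = 0.0150) and Cyp51 (-0.82 over the week, 1.03 across birth, adjusted p = 0.0243) and the ribosomal protein gene Rplp0 (-0.56 over the week, 0.23 across birth, adjusted p = 0.0447) also differed between the steps, each with P3 as its highest mean. For Igf2 the steps were -2.62 over the week and -2.44 across birth, and their difference did not pass (adjusted p = 0.849). H19 had -2.01 over the week and -4.35 across birth, and its difference passed (adjusted p = 0.0342). Left out 1 at a time, the libraries gave between 562 and 1797 genes that differed between the week and the step across birth.

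**Figure D5:**
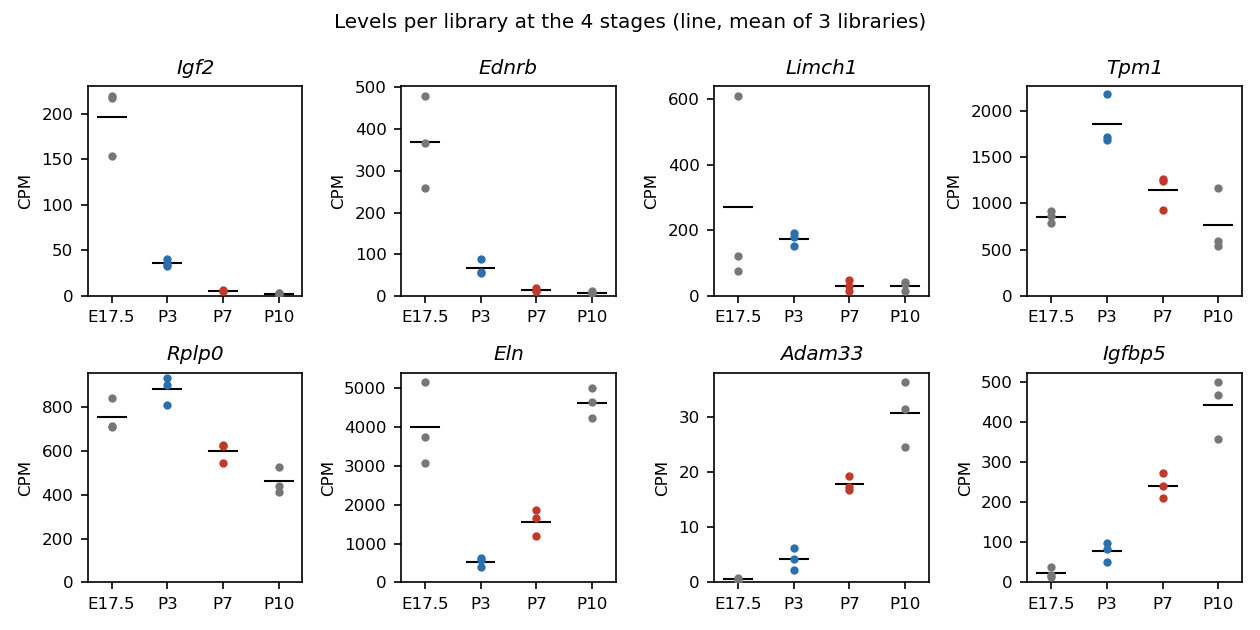
CPM per library at E17.5, P3, P7 and P10 for 8 genes, each panel with its own linear axis from 0; points are libraries (blue, P3; red, P7; grey, other stages) and lines are means of 3. Igf2, Ednrb, Adam33 and Igfbp5 have stage means in one order throughout, Eln is lowest at P3, and Tpm1 and Rplp0 are highest at P3.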

How the data were processed

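RNA of sorted Acta2-dsRed+, Pdgfra-GFP+ mouse lung cells was sequenced in 12 libraries, 3 a stage. The authors deposited estimated counts per gene, 1 column a library, rounded to whole numbers and not corrected for depth. They look scaled by transcript length: among genes at 0 in most libraries, the lowest value above 0 had a median of 54 for transcripts of up to 120 nt and of 1 for those over 1500 nt, so levels of short RNAs are inflated and their counting error is larger than the values imply. Reads went to build GRCm38, per the submitters' processing notes. Libraries were made with a low-input stranded kit, per the labels. No source used here names the aligner, the quantifier, the annotation or whether counting used strand.

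Of 28004 genes, 16827 passed edgeR's filterByExpr by stage. TMM scaling and a robust quasi-likelihood fit with stage as the only term were run on all 12 libraries (edgeR 4.0.16, R 4.3.3), with Benjamini-Hochberg adjustment at 0.05. The common dispersion was 0.145, with median prior degrees of freedom of 2.61. The step contrasts came from the same fit. Non-overlap means that all 3 CPM values of one stage lay above all 3 of the other. Positions came from GENCODE M21 and matched 25847 genes (92.3%). The scripts were tested on simulated data.

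Genes named are the reporters, Yap1, Wwtr1 and their Ctgf and Cyr61 targets, genes that passed, the 10 of lowest p, the 20 highest and 20 lowest fold changes as ranked in the text, up to 4 of lowest p per list, and members with a defining role. The 10 of lowest p were taken without the classes left out of the fold change ranking. The 53 lists were chosen with earlier results of these data known. Groups came from the stage labels, and replicate numbers from the same labels. Alternatives were other scalings, filters and tests (DESeq2 1.42.0, limma-voom 3.58.1), a fit of the 6 libraries alone, a replicate block, and leaving out each library.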

Additional observations from a re-analysis of the deposited data

How the results depend on the processing

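The number of genes that passed between P7 and P3 depended on the model. It was 1 with edgeR as described, 4 with upper quartile scaling, 3 with no filter, 18 with at least 5 CPM in 3 libraries required, 9 with the 6 libraries alone, 18 with limma-voom and 730 with DESeq2, and between 0 and 77 with 1 library left out. The 77 came without E17.5 replicate 1, with 38 genes higher and 39 lower at P7, and the cause was not tested. DESeq2 gave no adjusted p for 1078 genes, and 697 of its 730 genes (95.5%) had libraries that did not overlap. Igf2 passed in 10 of the 11 settings that kept every library, Has2 in 6 and S1pr3 in 5. Leaving out P3 replicate 1, P3 replicate 3, P7 replicate 1 or P7 replicate 2 left 0 genes, and leaving out P3 replicate 2 or P7 replicate 3 left 1 gene each, Zbtb16 (-3.55) without P3 replicate 2 and Cpm (-3.60) without P7 replicate 3, and Igf2 did not pass there. Genes at an unadjusted p under 0.05 numbered between 1568 and 2621 with 1 library left out, 1568 without P7 replicate 2.

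The numbers of the labels did not pair the libraries: same-numbered P7 and P3 libraries had deviations correlated at -0.119, -0.0358 and -0.177. The deposited columns number the P7 libraries 2, 3 and 4 where the titles number them 1, 2 and 3, and libraries with the same column number had correlations of -0.0116 and 0.0574. With the replicate number as a block, 0 genes passed and 2125 had an unadjusted p under 0.05, with Igf2 at -2.63 (adjusted p = 0.0953). In that block fit Cyr61 had -0.01262, against 0.11 without the block.

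With 1 library left out, between 0 and 4 genes differed between the week and the following step, 4 of them without E17.5 replicate 1, and between 562 and 1797 between the week and the step across birth. The lowest counts for the step across birth were 562 without P3 replicate 2, 686 without P3 replicate 3, 857 without P3 replicate 1, 872 without P7 replicate 2 and 991 without P7 replicate 1. List medians lay between -0.494 and -0.185 for the glucocorticoid genes, between 0.131 and 0.203 for the secondary crest markers and between -0.392 and -0.191 for the fetal growth genes. The metalloproteinase median was 0.357 under the stricter filter. Signs of genes close to 0 turned: Mylk had -0.001483 with RLE scaling, -0.001577 with DESeq2 and between -0.03674 and 0.01779 with a library left out. Myh11 had 0.02838 with upper quartile scaling, 0.0009111 without small RNAs in the scaling, 0.02733 under the stricter filter, 0.001047 in the fit of 6 libraries and between -0.07969 and 0.08352 with a library left out. Cyr61 had -0.0762 with limma-voom and between -0.5828 (without P7 replicate 1) and 0.3738 with a library left out, and Pdgfra had between -0.02422 (without P7 replicate 2) and 0.211. Depth limits the genes under 1 CPM, where few reads stand behind a value.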
